A study of Mus musculus with 14 samples.

Results

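The G2 and mitosis genes are a fixed list of 54 genes whose transcripts accumulate as a cell passes through G2 and divides. They were found by gene symbol in the deposited count tables, where each of the 54 was present in all 14 libraries among 31054 genes. Single cells of the mouse hindbrain lineage that expresses Atoh1 were profiled by droplet 3′ RNA sequencing, in which each molecule carries a unique molecular identifier (UMI). Control embryos were Atoh1Cre/+; Rosa lsl-tdTomato/+ and mutant embryos, called Atoh1S193A/-, were Atoh1Cre/S193A; Rosa lsl-tdTomato/+, all on a C57BL/6J background. The Cre allele replaces the Atoh1 coding region, so controls too carry 1 null copy, and the mutants hold the hypomorphic S193A copy beside it. Whole hindbrains were taken at E14.5 and E18.5, 1 embryo per library, with 3 control and 3 mutant libraries at each stage, and a mutant and a control of the same number were littermates. At P5 the pontine nuclei (PN) of control pups were dissected and pooled, with 11-13 pups in each of 2 libraries. Living tdTomato-positive cells were sorted before loading. The reporter marks every cell descended from one that expressed Cre, so progenitors and neurons were collected together, although the labels give the cell type as neurons.

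Progress through G2 and mitosis rests on cyclin B bound to Cdk1, which is switched on at entry into mitosis and switched off when the anaphase-promoting complex marks cyclin B for destruction. Many of the genes are held silent outside the cell cycle by the DREAM complex and activated in G2 by B-Myb and Foxm1 together with the same MuvB core, which recognises the letters TTTGAA or TTCGAA near the start site. Nuclear factor Y binds CCAAT boxes in the same promoters. In the hindbrain, the rhombic lip gives rise to PN neurons, whose progenitors divide in the neuroepithelium before the neurons migrate, and to granule neuron progenitors, which divide again in the external granule layer around birth.

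The 54 genes were arranged by role. Chromosome structure and chromatin held 10 (among them Hmgb2, Top2a and Mki67), cyclin-kinase control and proteolysis 10 (Cdk1, Ccnb2, Cdc20, Ube2c), spindle motors and microtubule proteins 16 (Kif11, Tpx2, Tubb4b, Jpt1), mitotic kinases and the chromosomal passenger complex 7 (Aurka, Aurkb, Birc5), centromere and kinetochore 6 (Cenpa, Cenpf, Hjurp), the nuclear envelope 2 (Lbr, Tmpo) and cytokinesis 3 (Anln, Ect2, Kif23). Promoters of 47 of them were held in RefSeq on GRCm38.p6, from 250 bases before to 50 after the start. The stretches below run from 150 bases before to 25 after the start and are shown for a set of 8 genes named in each test and for Jpt1, the gene that departed most often from the rest. Each is written 5′ to 3′ along the gene, with capitals on CCAAT or its complement ATTGG and on TTTGAA, its complement TTCAAA, or TTCGAA.
Mki67 (chr7:135716355-135716529, minus strand): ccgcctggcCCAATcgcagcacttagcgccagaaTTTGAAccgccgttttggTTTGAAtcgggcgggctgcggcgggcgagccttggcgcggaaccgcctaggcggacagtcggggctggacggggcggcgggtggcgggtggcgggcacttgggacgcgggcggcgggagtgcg
Top2a (chr11:99024165-99024339, minus strand): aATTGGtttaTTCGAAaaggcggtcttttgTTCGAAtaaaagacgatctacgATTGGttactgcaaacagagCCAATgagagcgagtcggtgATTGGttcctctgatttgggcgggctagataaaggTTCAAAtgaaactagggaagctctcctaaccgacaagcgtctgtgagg
Hmgb2 (chr8:57511693-57511867, plus strand): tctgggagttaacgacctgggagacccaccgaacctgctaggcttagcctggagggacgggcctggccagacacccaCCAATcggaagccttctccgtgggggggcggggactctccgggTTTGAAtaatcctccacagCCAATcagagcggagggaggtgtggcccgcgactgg
Cdk1 (chr10:69352888-69353062, minus strand): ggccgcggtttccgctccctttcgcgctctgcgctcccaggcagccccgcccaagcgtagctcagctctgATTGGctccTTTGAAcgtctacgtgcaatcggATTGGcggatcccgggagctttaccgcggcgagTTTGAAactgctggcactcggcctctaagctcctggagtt
Ccnb2 (chr9:70421530-70421704, minus strand): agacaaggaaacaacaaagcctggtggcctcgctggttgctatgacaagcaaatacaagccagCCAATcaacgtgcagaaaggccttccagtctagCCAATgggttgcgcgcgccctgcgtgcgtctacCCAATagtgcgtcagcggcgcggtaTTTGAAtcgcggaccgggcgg
Cdc20 (chr4:118437319-118437493, minus strand): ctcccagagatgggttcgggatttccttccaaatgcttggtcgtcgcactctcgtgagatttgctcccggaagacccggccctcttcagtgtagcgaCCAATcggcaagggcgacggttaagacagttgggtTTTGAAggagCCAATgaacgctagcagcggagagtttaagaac
Aurka (chr2:172370546-172370720, minus strand): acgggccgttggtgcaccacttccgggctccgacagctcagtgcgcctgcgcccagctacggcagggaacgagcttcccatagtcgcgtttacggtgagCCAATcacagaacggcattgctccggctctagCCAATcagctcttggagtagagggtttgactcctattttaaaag
Cenpa (chr5:30666736-30666910, plus strand): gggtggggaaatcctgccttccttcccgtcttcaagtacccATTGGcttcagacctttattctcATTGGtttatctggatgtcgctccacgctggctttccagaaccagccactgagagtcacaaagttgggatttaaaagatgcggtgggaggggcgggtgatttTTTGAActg
Jpt1 (chr11:115514369-115514543, minus strand): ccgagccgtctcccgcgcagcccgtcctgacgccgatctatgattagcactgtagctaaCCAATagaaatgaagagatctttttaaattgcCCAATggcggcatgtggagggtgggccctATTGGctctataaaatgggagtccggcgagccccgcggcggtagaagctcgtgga

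TTTGAA or TTCGAA, read on both strands, lay in 36 of the 47 promoters (76.6%), against 21.7% of the promoters of 27025 genes. CCAAT, read on both strands, also lay in 36 (76.6%), against 41.1% of all genes. Both were found together in 29 (61.7%), against 8.61% of all genes. Among 31 S-phase genes with a promoter entry, 71% held CCAAT but only 19.4% held TTTGAA or TTCGAA, so the 2 lists were farther apart in the latter letters. Ccnb2, the mitotic B-type cyclin, and Cdc20, the activator of the anaphase-promoting complex, each had the motif close to the start in the stretch shown, and the Aurka match lay 32 bases after the start, beyond it. Jpt1, a microtubule-associated protein, had 3 CCAAT boxes and neither TTTGAA nor TTCGAA. The other 10 promoters without either were those of Birc5, Cbx5, Cenpe, Cks2, G2e3, Gtse1, Nek2, Nuf2, Nusap1 and Tacc3. The motif counts are descriptions of these windows, with no test.

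After filters on mitochondrial reads, gene number and doublets, 80250 of 150188 barcodes were kept, and library totals ran from 108239001 to 236964126 UMIs. The most barcodes that any 2 libraries shared was 58, which was 0.6242% of the smaller library. Cells were clustered stage by stage without the 54 genes, other listed cell cycle genes and histone genes, 292 in all. Clusters were named from marker genes, so that none of the 54 genes placed a cell in a class. Names carry "-like" since they rest on these rebuilt clusters. At E14.5 there were 1572 PN-like progenitors (1 cluster, with Hoxb3, Pax6 and Ccnd1 and low Mapt), 1882 PN-like intermediate progenitors marked by Atoh1, 3724 PN-like neurons, 4557 granule-like progenitors and 1434 granule-like neurons, and 21256 cells stayed unnamed. At E18.5 there were 12790 granule-like progenitors, 10501 granule-like neurons, 3089 unipolar brush-like cells and 3258 PN-like neurons, and no PN-like progenitor class was found. The P5 libraries held 7002 PN-like neurons with smaller glial classes. UMIs were summed per library and class and expressed per 1000000 UMIs of that class (CPM).

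The 54 genes were high in the progenitor classes and low in the intermediate progenitor and neuron classes. In E14.5 PN-like progenitors of the 3 controls, their summed level was 12047, 13639 and 13457 CPM. In PN-like intermediate progenitors it was 2283 ± 49.4 CPM (SD, n = 3), and in PN-like neurons 2854 ± 54.7 CPM (SD, n = 3). By this sum the intermediate progenitors were the lowest of the 3 classes, with the neurons slightly above them. That order came from the spindle and microtubule genes, at 1085 CPM in intermediate progenitors and 1922 CPM in neurons. The chromatin genes went the other way, at 886 and 688 CPM, as did the cyclin-kinase genes, at 139 and 75.4 CPM. Centromere and nuclear envelope genes were slightly lower in the neurons, and mitotic kinase and cytokinesis genes slightly higher. E18.5 granule-like progenitors stood at 14334, 12991 and 13618 CPM in the controls and granule-like neurons at 2453 ± 54.5 CPM (SD, n = 3). Every embryonic sample of PN-like or granule-like progenitors lay above every neuron sample (the plot of summed levels shows each one). One of the E18.5 granule-like progenitor clusters was led by the genes themselves, Top2a, Cenpf and Mki67 among them, although none had been used to form it. Genes that move with them but were in no list, such as Chtf18 and Cenpl, had not been set aside. Contrasts between classes are given without a test, since the cells were clustered on genes that move with maturation.

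**Figure D1:**
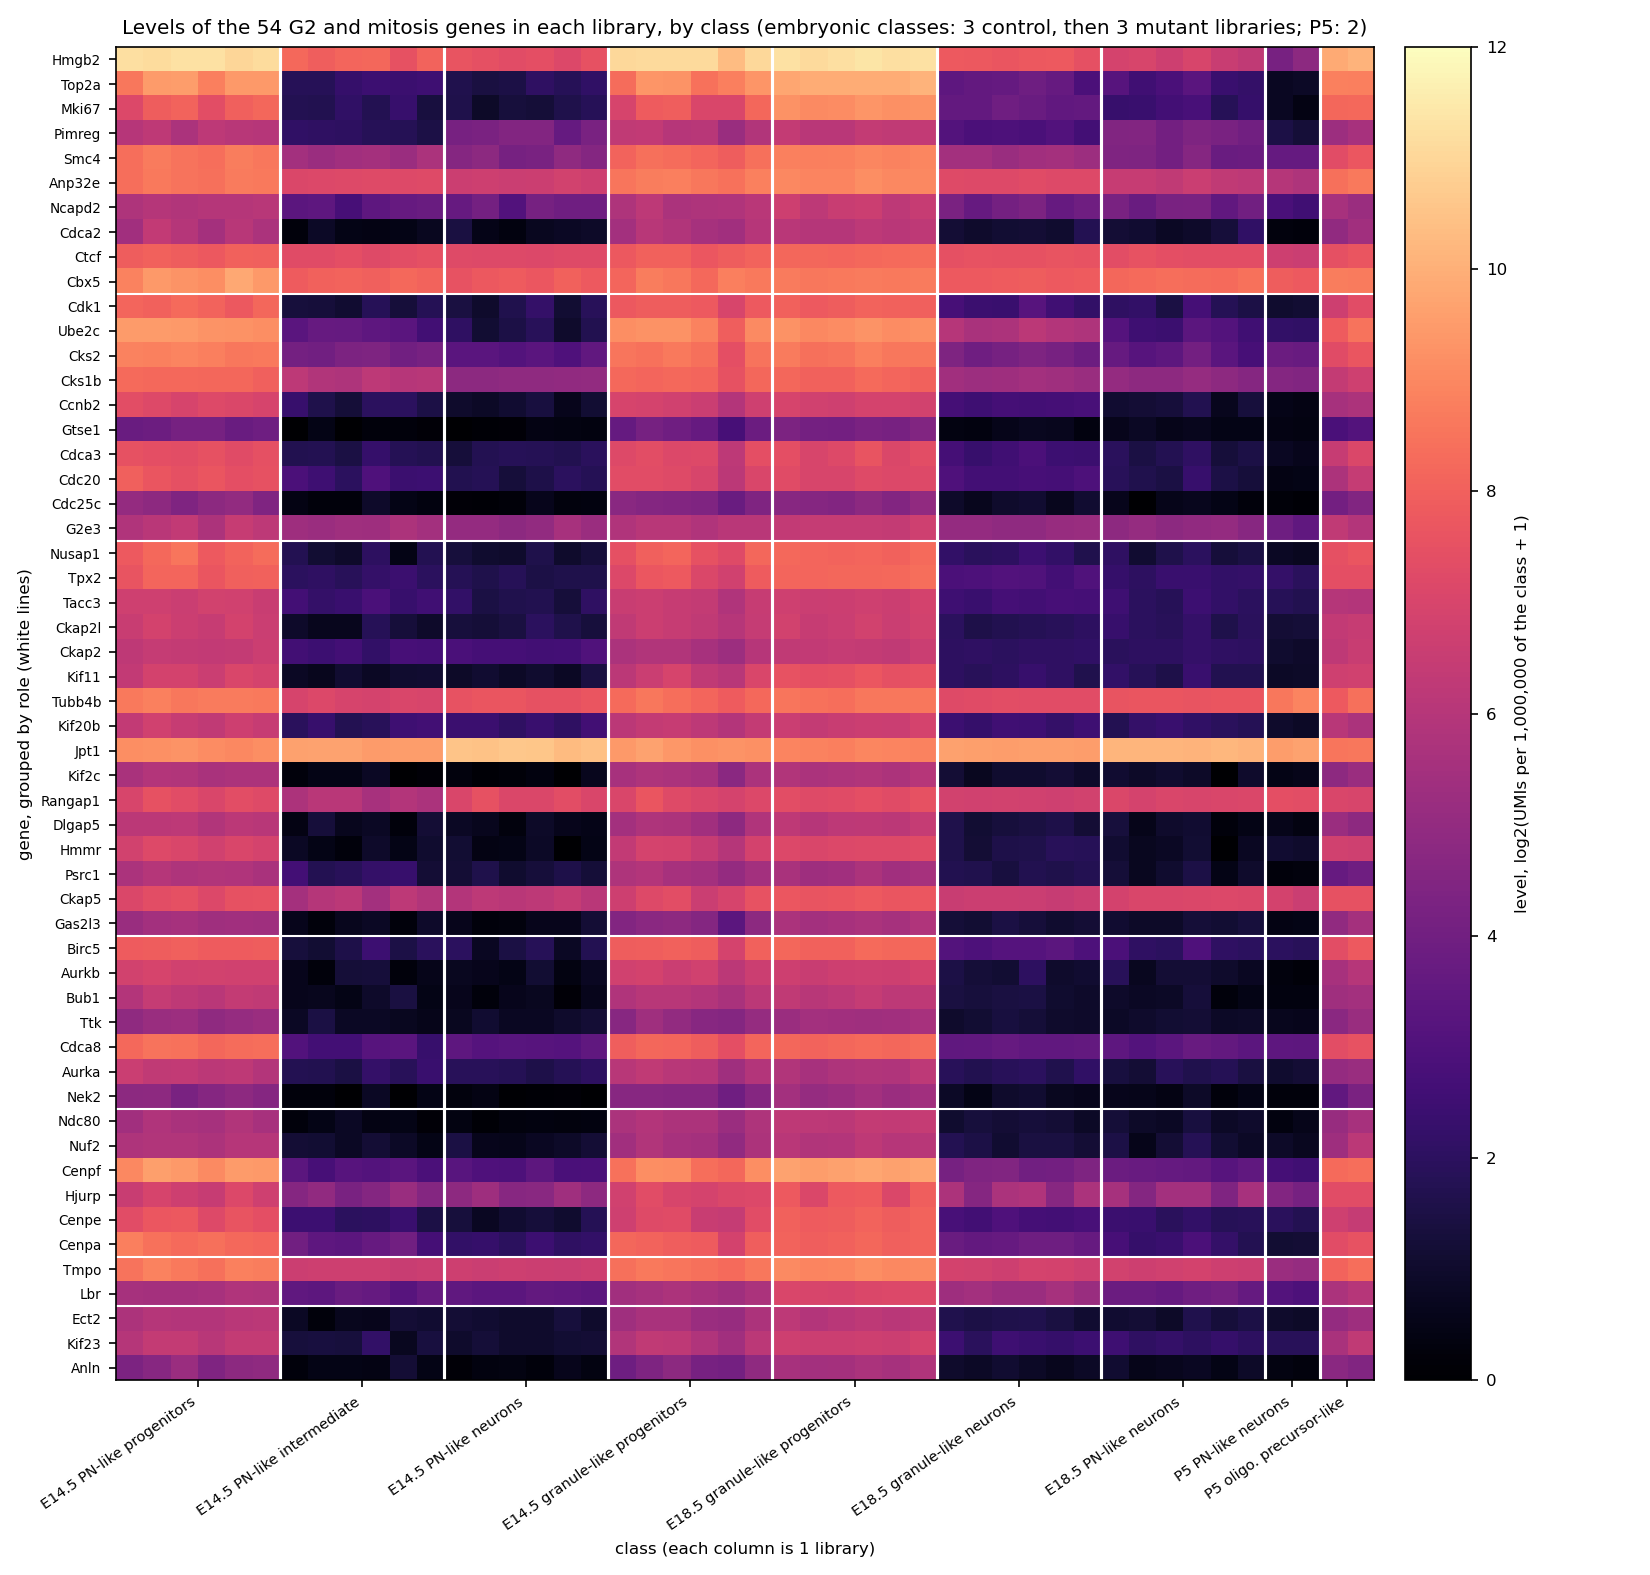
Level of each of the 54 genes (rows, grouped by role between white lines) in each library (columns, grouped by stage and class), as log2(CPM + 1) on a colour scale from 0 to 12. PN-like and granule-like progenitors are bright over nearly all rows, and in neurons the rows of Jpt1, Tubb4b, Rangap1, Ctcf and Cbx5 stay bright.

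**Figure D2:**
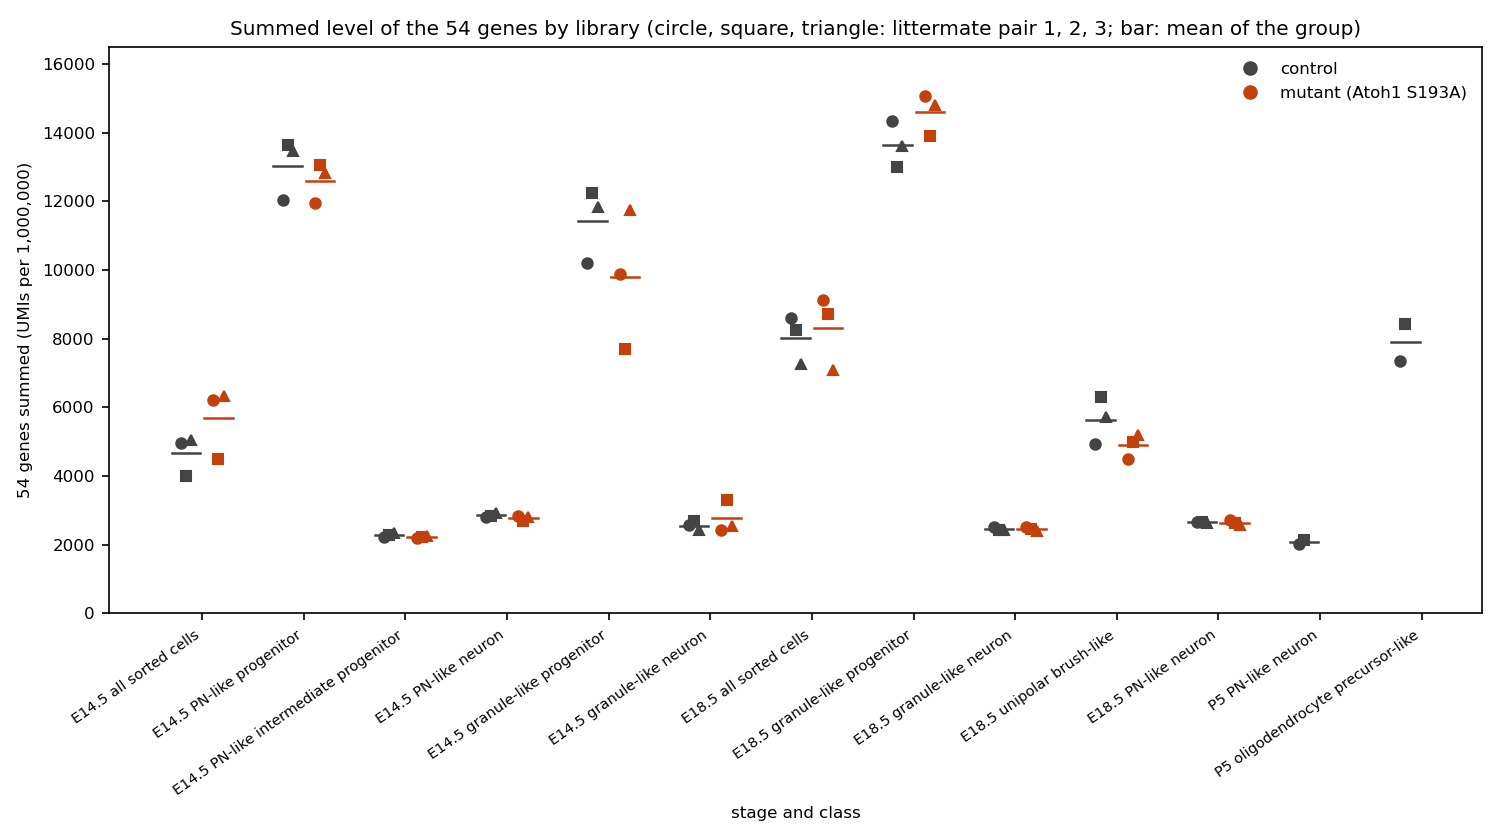
Sum of the 54 genes in CPM (vertical axis) for each library by stage and class (horizontal axis), with dark points for control, orange for mutant, symbol shape for the littermate pair (at P5, the library number) and bars for group means. Embryonic PN-like and granule-like progenitors lie between 7706 and 15084, and embryonic neuron-like classes far below them, with control means of 2453 to 2854.

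Mki67, which coats mitotic chromosomes, went from 218 ± 67.9 CPM in control E14.5 PN-like progenitors to 2.66 ± 0.583 CPM in intermediate progenitors (SD, n = 3). Top2a, the topoisomerase that untangles sister chromatids, went from 617 ± 196 to 3.05 ± 0.742 CPM over the same step (SD, n = 3). Cdk1, the mitotic kinase, went from 281 ± 23.8 to 1.36 ± 0.168 CPM (SD, n = 3). These 3 genes were thus at about 1% of their progenitor level or less already in the class marked by Atoh1. The median gene of the 54 stood at 1.98% of its progenitor level there, with 36 genes under 5%. In PN-like neurons the median was 1.47% at E14.5, with 37 genes under 5%. In E18.5 granule-like neurons, set against granule-like progenitors, it was 3.82%, with 37 genes under 5%.

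The role groups differed in how far they fell. From control E14.5 PN-like progenitors to PN-like neurons, the 3 cytokinesis genes together went from 161 ± 24.2 to 2.52 ± 0.214 CPM and the 7 mitotic kinase and passenger genes from 909 ± 55.4 to 15.3 ± 2.22 CPM (SD, n = 3). The 6 centromere genes went from 1433 ± 120 to 43.3 ± 7.60 CPM, of which Hjurp alone made up 30.2 CPM in the neurons. The 10 cyclin-kinase genes went from 2399 ± 66.6 to 75.4 ± 2.50 CPM. By contrast, the 10 chromatin genes kept 688 of 4978 CPM, the 2 nuclear envelope genes 109 of 451 CPM and the 16 spindle and microtubule genes 1922 of 2716 CPM. Jpt1 was most of what remained of the spindle group. In E18.5 granule-like cells the mitotic kinase and cytokinesis genes again kept the least, 25.9 of 856 CPM and 7.02 of 211 CPM, and the spindle genes the most, 1168 of 2644 CPM.

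A few members did not follow. Jpt1 was at 572, 586 and 639 CPM in E14.5 PN-like progenitors of the controls and at 1470, 1407 and 1577 CPM in their PN-like neurons. It was higher in the neurons of every control. The control means correspond to 248% of the progenitor level. E14.5 intermediate progenitors stood between, at 135%. Rangap1, which activates the Ran GTPase for nuclear transport and spindle assembly, was at 94.4% of its progenitor level in E14.5 PN-like neurons. Ctcf, the chromatin insulator protein, was at 58.9%, Tubb4b, a beta-tubulin, at 47.8%, G2e3 at 44.3% and Ckap5, a microtubule polymerase, at 42.5%. Jpt1, Tubb4b and Ckap5 act on microtubules, and Ctcf acts in interphase nuclei. Kif11 and Tpx2, of the same role group as Jpt1, were at 0.921% and 0.957% in these neurons. Why some genes stayed and others fell was not tested.

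Much the same genes led in the other neuron classes. In E18.5 granule-like neurons the order was Jpt1 (163% of granule-like progenitors), Rangap1 (70.4%), Ctcf (63.4%), Cbx5, a heterochromatin protein (56.2%), Ckap5 (48.2%) and Tubb4b (45.3%). In E14.5 granule-like neurons it was Jpt1 (158%), Rangap1 (63.7%), Lbr (56.5%), Ctcf (56.3%), Ckap5 (47.0%) and G2e3 (46.0%). E18.5 PN-like neurons had no progenitor class of their own stage. Set against E18.5 granule-like progenitors, they held Jpt1 at 241%, Rangap1 at 82.4%, Cbx5 at 77.0% and Ckap5 at 64.0%, with 40 of the 54 genes under 5%. The letters in the promoter did not separate the genes that stayed: of 36 genes with TTTGAA or TTCGAA, 8 stood above 20% of the progenitor level in E18.5 granule-like neurons, and of the 11 without, 3 did.

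At P5 the PN-like neurons had few transcripts of the list. Their summed level was 2015 CPM in library 1 and 2130 CPM in library 2, and 41 genes stood under 5% of the E14.5 PN-like progenitor level. Mki67 was at 0.685 and 0.383 CPM, and Top2a at 0.730 and 0.810 CPM. Jpt1 (772 ± 54.6 CPM, SD, n = 2), Tubb4b (440 ± 74.9 CPM) and Rangap1 (167 ± 4.52 CPM) remained at or above the progenitor means, at 129%, 106% and 105.5%. E14.5 and P5 libraries differ in dissection as well as age, so this contrast carries both.

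Higher levels at P5 were found outside the PN-like neurons. Whether those other cells descend from Atoh1-expressing cells, or were carried along in the dissection or the sort, was not tested. Oligodendrocyte precursor-like cells had a summed level of 7357 and 8440 CPM in libraries 1 and 2, and Mki67 at 292 and 300.1 CPM. Oligodendrocyte-like cells had 1255 and 1180 CPM, and Mki67 at 0.908 and 1.86 CPM. The precursors thus stood far above the oligodendrocyte-like cells in both libraries. The oligodendrocyte-like class held a cluster led by Gpr17 and Bmp4 (1624 CPM), one led by Enpp6 (1258 CPM) and one led by Mag and Cldn11 (1054 CPM). The other glial classes were each joined from unlike clusters and are given by cluster, over both libraries. In 936 microglia-like cells, led by Cx3cr1, Trem2 and P2ry12, the summed level was 5340 CPM and Mki67 278 CPM. The other cluster of that class, 194 cells led by Pf4, Mrc1 and Lyve1, genes known from macrophages at the borders of the brain, had 1842 CPM and Mki67 at 55.3 CPM. In 570 astrocyte-like cells, led by Aqp4 and Aldoc, the level was 2936 CPM and Mki67 69.1 CPM. A cluster of 28 cells named with them but led by genes of motile cilia (Dynlrb2, Cfap126 and Pifo among them) had 2400 CPM and no Mki67 UMI. Nearly all of the P5 granule-like progenitors (312 of 317) came from library 2, where the summed level was 14249 CPM and Mki67 497 CPM.

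The share of cells with an Mki67 UMI was compared after every cell with at least 5000 UMIs had been thinned to that depth. Shallower cells were left out, so the shares are those of the deeper cells. In P5 library 1, for example, 7746 of 8726 kept cells entered. Mki67 was found in 39.7% ± 9.40 of control E14.5 PN-like progenitors and 36.5% ± 6.38 of granule-like progenitors (SD, n = 3), and in 61.4% ± 1.86 of E18.5 granule-like progenitors. The class that should lack the transcript, E14.5 PN-like neurons, gave 0.597% ± 0.339 in the 3 controls after thinning, from median depths of 17040 to 19890 UMIs (2.467% without thinning), and serves as background. At P5, 29.2% and 32.1% of oligodendrocyte precursor-like cells had a UMI, against 0.226% and 0.662% of oligodendrocyte-like cells and 0.372% and 0.269% of PN-like neurons. For library 1 the 95% Wilson interval, which covers counting error only, was 24.7% to 34.1% in the precursors.

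Within progenitors the 54 genes were not one block. Pearson's r was taken over cells within each control library, on log-normalised levels, between each gene and the sum of 43 S-phase genes and the sum of 60 other mitotic genes. It is given as a description, since cells of a library share its depth. In E18.5 granule-like progenitors every gene except Cbx5 had the higher r with the mitotic sum. Ube2c, the ubiquitin-conjugating enzyme of the anaphase-promoting complex, had r = 0.75 with the mitotic sum and -0.12 with the S-phase sum. Cenpa, the centromeric histone, had 0.61 and -0.22, and Cdc20 had 0.60 and -0.14. These genes of late G2 and mitosis lay at one end. Top2a had 0.82 and 0.44, Smc4, a condensin subunit, 0.78 and 0.38, and Tmpo, a lamina protein, 0.61 and 0.46. Cbx5 was the one gene nearer to S phase, with 0.34 and 0.51. E14.5 granule-like and PN-like progenitors had the same genes at the ends, with Ube2c and Cenpa farthest toward mitosis and Tmpo and Cbx5 farthest toward S phase.

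**Figure D3:**
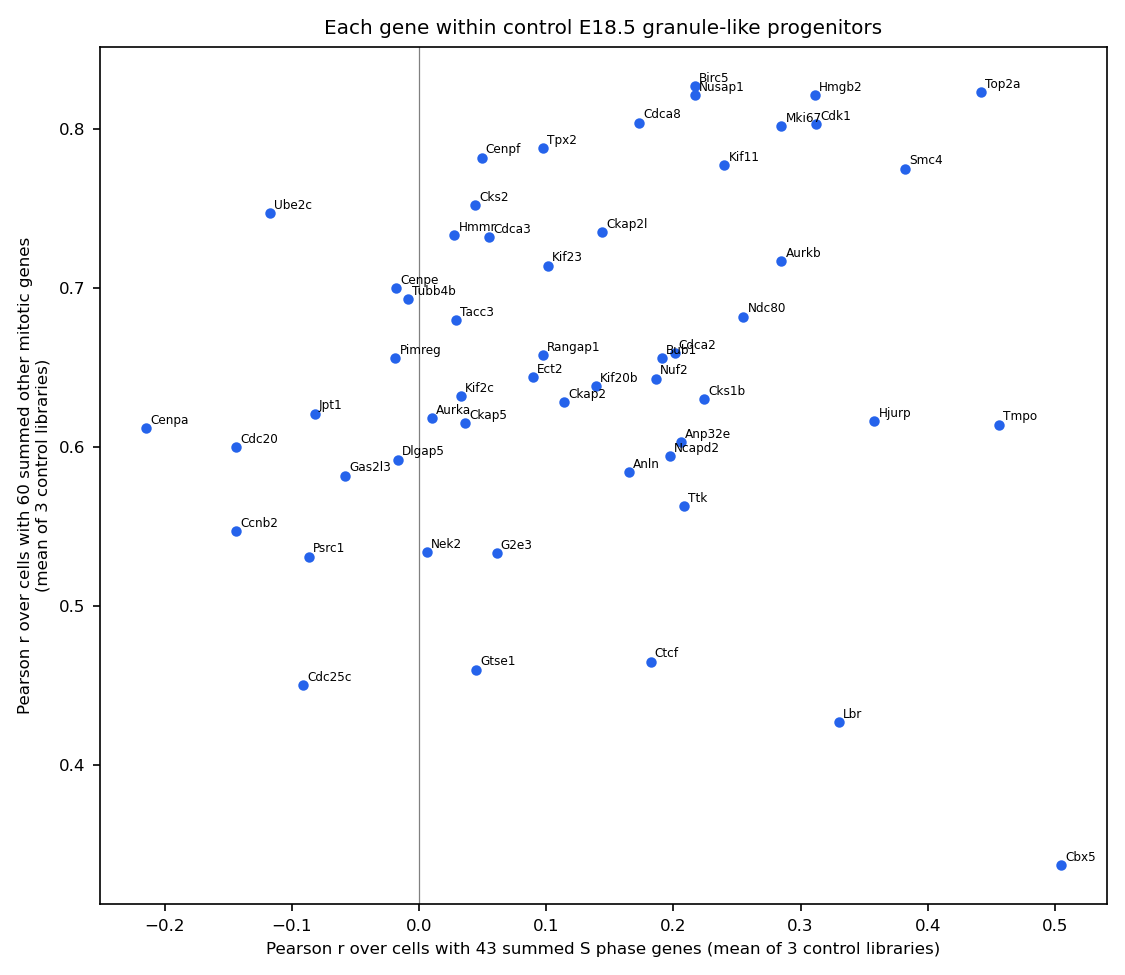
Each point is 1 gene in control E18.5 granule-like progenitors, placed by Pearson's r over cells with 43 summed S-phase genes (horizontal) and with 60 summed other mitotic genes (vertical), each the mean of 3 libraries. Cenpa, Ube2c, Ccnb2 and Cdc20 lie to the left of 0, Top2a, Smc4 and Tmpo to the upper right, and Cbx5 at the lower right.

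Over 41 control class sums from all stages, the genes outside the list that followed its summed level most closely were Cenpk (Pearson's r = 0.981), a kinetochore subunit, Chtf18 (0.973), a clamp loader component, Cenpl (0.972), another kinetochore subunit, Hells (0.969), a chromatin remodeller, and Cenpu (0.968). The points share libraries, and the coefficients describe likeness only.

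The first comparison asked whether the genes differed between genotypes in the sorted cells as a whole at E14.5. Libraries were tested by edgeR's quasi-likelihood test over all genes, and a gene was called at a Benjamini-Hochberg adjusted p under 0.05 with a log2 change above 0.25 in either direction. The mean was higher in mutants for 52 of the 54 genes, with a median log2 change of 0.53 against 0.009 over all genes tested. That median was 0.339 without control library 2, 0.367 and 0.363 without mutant library 1 or 3, and 0.772 without mutant library 2. None was called by edgeR, as none of the 17529 genes was (0%), and 6 of the 54 had an unadjusted p under 0.05, where 12% of all genes had. Mki67 was at 38.0, 32.5 and 65.9 CPM in controls 1 to 3 and 67.0, 49.8 and 113 CPM in mutants 1 to 3. The mutant was the higher in each littermate pair, but the groups overlapped, and the log2 change was 0.70 ± 0.38 (SE). Of the others, Top2a changed by 0.63, Cdk1 by 0.64, Ccnb2 by 0.51, Cdc20 by 0.40, Aurka by 0.45, Cenpa by 0.41 and Hmgb2, a chromatin protein, by 0.49 on the log2 scale, none of them called.

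The smallest p among the 54 belonged to Hjurp, the chaperone that loads Cenpa onto centromeres. It was at 54.2, 53.0 and 52.1 CPM in controls and 68.0, 67.4 and 71.9 CPM in mutants. The groups were well apart, by 0.33 ± 0.07 on the log2 scale (SE, edgeR adjusted p = 0.323). Jpt1 went the other way, with 1079, 1184 and 1138 CPM in controls and 917, 961 and 864 CPM in mutants, without overlap and by -0.36 on the log2 scale (edgeR adjusted p = 0.328). Tmpo, Hjurp, Ncapd2 and G2e3 were the 4 genes higher in every mutant than in any control, where 12.2% of all genes were, and Jpt1 was the 1 lower gene, where 5.52% were.

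When the littermate pair was a term in the model, 46 of the 54 genes were called by edgeR, against 13.9% of all genes. Of these, 45 were higher in the mutants (8.84% of all genes) and Jpt1 was lower. The largest were Anln, a cytokinesis scaffold, at 0.76, Ect2, which activates RhoA at the cleavage furrow, at 0.71, Kif11, the spindle kinesin, at 0.70, Bub1 at 0.69, Mki67 at 0.68 (edgeR adjusted p = 0.00771) and Gas2l3 at 0.66 on the log2 scale. The genes not called were Tubb4b, Ckap5, Ncapd2, Ctcf, Pimreg, Rangap1, Gtse1 and Cbx5. Higher in the mutant were 52, 50 and 52 of the 54 genes in pairs 1, 2 and 3, with medians of 0.562, 0.453 and 0.595 on the log2 scale. The pairs were thus alike in size while the levels of the pairs differed. In every E14.5 comparison of genotypes, controls 1 and 2 were counted with an older release of the counting software, Cell Ranger, than the mutants. In pairs 1 and 2 release and genotype therefore cannot be told apart. Pair 3, with the median of 0.595, had 1 release.

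The make-up of the sorted cells moved with this result. PN-like progenitors were 2.52%, 1.81% and 1.52% of kept cells in controls and 8.97%, 4.93% and 7.70% in mutants. Granule-like progenitors, the larger class, were 16.9%, 5.23% and 17.5% in controls and 21.77%, 3.94% and 18.52% in mutants, higher in the mutant of pairs 1 and 3 and lower in that of pair 2. Unnamed clusters moved too. Those with a summed level above 4000 CPM, 6 clusters of 3299 cells in all, were 7.76%, 5.83% and 5.59% of kept cells in controls and 13.1%, 13.1% and 11.9% in mutants. The largest of them, 1807 cells led by Rspo1 and Wnt1 at 10820 CPM, was 3.66%, 2.42% and 2.89% in controls and 8.49%, 7.16% and 6.76% in mutants, without overlap. The filters kept 3248 of 7972, 6352 of 10407 and 6568 of 12869 barcodes in controls 1 to 3. In mutants 1 to 3 they kept 4773 of 9672, 6913 of 9000 and 6571 of 10812, a larger share in each pair. The part of the filters in the make-up was not tested. A sum over all sorted cells cannot tell more dividing cells from more transcript per dividing cell. Beside the 54 genes, the other mitotic genes had a median of 0.516 (57 of 60 positive), the S-phase genes 0.492 (43 of 43 positive) and the transcription factors and MuvB subunits that regulate them 0.23 on the log2 scale, and none was called without the pair term. Among all sorted cells, 8.26% ± 2.35 of control and 12.9% ± 4.12 of mutant cells had an Mki67 UMI after thinning (SD, n = 3; exact permutation p = 0.3, two-sided, where 0.1 is the smallest p that 3 against 3 allows). In each littermate pair the mutant had the higher share. The exact permutation p within pairs was 0.25, the smallest that 3 pairs allow. Without thinning the shares were 13.5% and 20.6%. The difference of 4.67 percentage points was 3.02 without mutant library 3 and 6.98 without mutant library 2.

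Within E14.5 PN-like progenitors, where the share of this class among the sorted cells no longer enters, the levels were close. The class still joins cells with and without Mki67 transcripts, and the part of that mix in the levels was not tested. The summed level was 12047, 13639 and 13457 CPM in controls and 11945, 13056 and 12818 CPM in mutants. The groups overlapped, and each mutant lay slightly below its littermate. Across the 54 genes 39 had a lower mean in mutants and the median log2 change was -0.08. It was -0.134 without control library 1 and -0.0408 and -0.0383 without control library 2 or 3. None was called by edgeR, with or without the pair term, against 0.0171% and 1.03% of all genes, and 2 had an unadjusted p under 0.05 (3.37% of all genes). Aurka, the kinase of centrosomes and spindle poles, was at 96.4, 79.3 and 80.8 CPM in controls and 70.1, 74.3 and 60.7 CPM in mutants. It was lower in every mutant by -0.37 ± 0.13 on the log2 scale (SE, edgeR adjusted p = 1). Ube2c was at 723, 717 and 692 CPM in controls and 623, 612 and 580 CPM in mutants, also without overlap, by -0.28.

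Genes lower in every mutant PN-like progenitor sample than in any control numbered 6 (Ube2c, Cks2, Cks1b, Jpt1, Dlgap5 and Aurka), where 2.92% of all genes were, and 1 gene, Lbr, was higher, where 5.64% were. Cks2 and Cks1b are the small subunits that dock Cdk1 to its substrates. Cenpa changed by -0.29, Cdc20 by -0.23, Cdk1 by -0.17, Ccnb2 by -0.13, Hmgb2 by -0.13, Top2a by -0.08 and Mki67 by 0.07 on the log2 scale, none called. By role, 9 of the 10 cyclin-kinase genes (summed, 2399 ± 66.6 CPM in controls and 2151 ± 82.0 CPM in mutants, SD, n = 3) and 13 of the 16 spindle genes had lower means, against 4 of the 10 chromatin genes. Mki67 was detected in 39.7% ± 9.40 of control and 42.7% ± 6.00 of mutant cells (exact permutation p = 0.7, n = 3 and 3), and 10 or more of the 54 genes in 71.3% and 65.5%. The class held 82 to 115 cells per control library and 341 to 506 per mutant library, so the controls are the less precise side.

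In the classes that follow, fewer genes could be tested. Of the 54, 36 passed the minimum of 10 UMIs per library in PN-like intermediate progenitors and 42 in E14.5 PN-like neurons, and the others were too sparse. None was called by edgeR in either class, where 0% of all genes were (1.68% and 0.0316% with the pair term, again with none of the 54), and 2 and 1 had an unadjusted p under 0.05 (4.82% and 2.01% of all genes). The medians were 0.04 and 0.05 on the log2 scale. With 1 library left out they ran from 0.0227 (without mutant library 2) to 0.103 (without mutant library 3) in the former and from -0.0134 (without control library 3) to 0.0929 (without control library 2) in the latter. The lowest p in the intermediate progenitors belonged to Birc5 (0.95), Aurka (0.72) and Jpt1 (-0.17), and in the neurons to Top2a (0.64), G2e3 (0.30) and Jpt1 (-0.15), all with edgeR adjusted p of 0.995 or 1. The log2 changes of the set of 8 were Mki67 -0.09, Top2a 0.54, Hmgb2 -0.17, Cdk1 0.67, Ccnb2 0.02, Cdc20 0.14, Aurka 0.72 and Cenpa -0.14 in the intermediate progenitors. In the neurons they were Mki67 0.41, Top2a 0.64, Hmgb2 -0.14, Cdk1 0.60, Ccnb2 0.13, Cdc20 0.25, Aurka -0.10 and Cenpa 0.08. None of these was called. In intermediate progenitors 3 genes, Top2a, Ncapd2 and Aurka, were higher in every mutant (5.61% of all genes) and Pimreg and Jpt1, 2 genes, lower (4.24%). In the neurons Top2a was at 2.21, 1.69 and 1.91 CPM in controls and 3.29, 2.63 and 3.37 CPM in mutants, and it and Cks1b were the 2 genes higher in every mutant (7.23% of all genes), with none lower (1.6%). The share of PN-like neurons with an Mki67 UMI was 0.597% ± 0.339 in controls and 1.30% ± 0.157 in mutants (exact permutation p = 0.1, n = 3 and 3, the smallest the design allows). The groups did not overlap after thinning, with at most 0.870% in a control and at least 1.15% in a mutant. These shares rest on 1, 4 and 9 cells in controls 1 to 3 and 7, 6 and 8 cells in mutants 1 to 3. The class is also the one used above as background. Within littermate pairs the exact permutation p was 0.25. With at least 2 Mki67 UMIs required the shares were 0% and 0.0612%. For 10 or more of the 54 genes they were 1.96% and 2.52% (exact permutation p = 0.6). Without thinning the groups overlapped in the Mki67 share, at 1.76% to 3.04% and 2.55% to 5.31%.

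**Figure D4:**
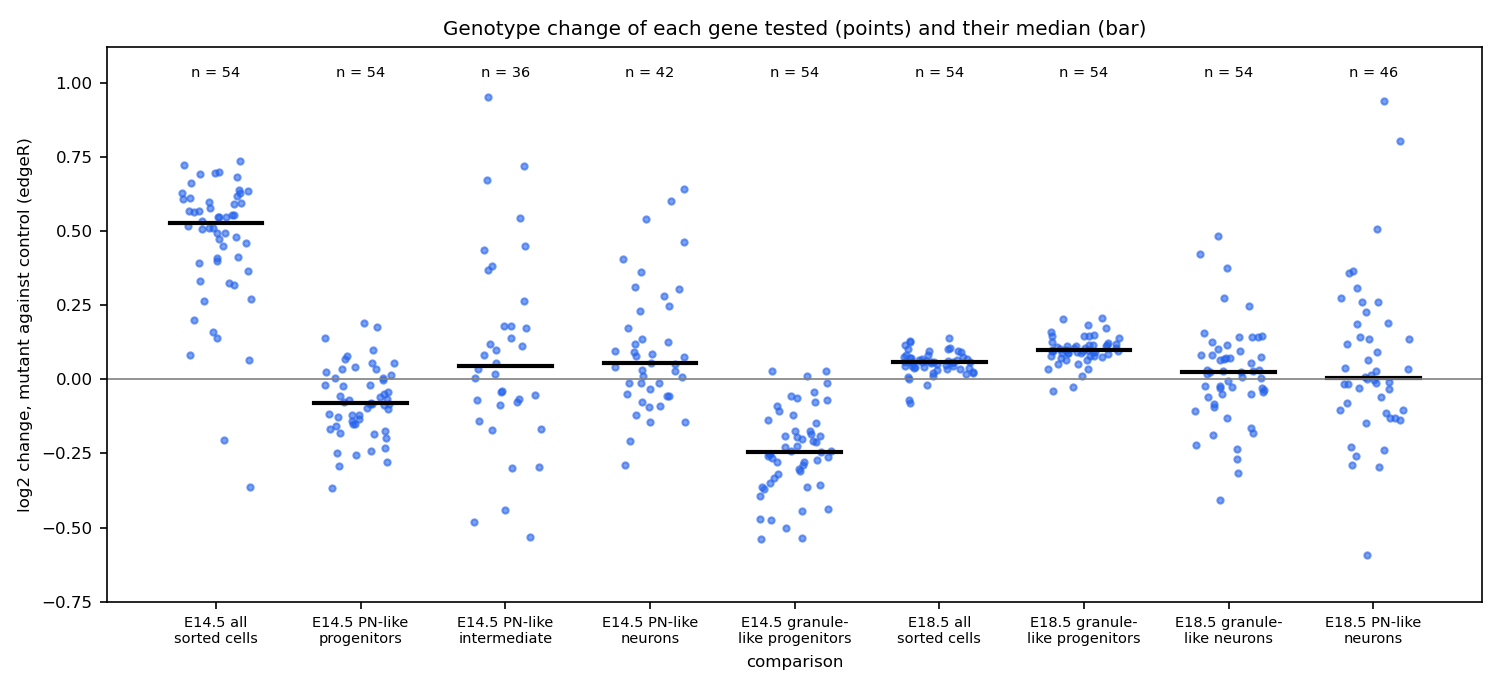
Log2 change of each tested gene in mutants against controls (points) for 9 comparisons, with the median as a bar and the number of genes tested above. In E14.5 sorted cells the points centre on 0.53, while in the progenitor-like classes they centre on -0.08 and -0.24 at E14.5 and 0.10 at E18.5.

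E14.5 granule-like progenitors had lower means in mutants for 51 of the 54 genes. The summed level was 10220, 12261 and 11826 CPM in controls and 9888, 7706 and 11764 CPM in mutants, so mutant library 2 stood apart. The median log2 change was -0.24, and without that library it was -0.05. It was -0.443 without mutant library 3 and -0.165 without control library 2. Within pairs, 26, 2 and 31 of the 54 genes were higher in the mutant, with medians of -0.018, -0.758 and 0.02. None of the 54 genes was called by edgeR, with or without the pair term, against 0% and 1.13% of all genes, and 5 had an unadjusted p under 0.05 (4.44% of all genes). Psrc1, a spindle protein, was at 53.9, 60.1 and 47.1 CPM in controls and 42.7, 31.5 and 42.4 CPM in mutants, without overlap and by -0.48 on the log2 scale (edgeR adjusted p = 0.887). Tubb4b was at 310, 382 and 333 CPM in controls and 283, 227 and 297 CPM in mutants, and changed by -0.37. Jpt1 changed by -0.29 and Cdc20 by -0.54.

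In the same class, 9 genes (Ube2c, Ccnb2, Tubb4b, Jpt1, Cdc20, Cdc25c, Aurka, Psrc1 and Cenpa) were lower in every mutant, where 3.45% of all genes were, and none was higher, where 5.09% were. Mutant library 2 had the smallest class of the mutants, at 3.94% of its cells, and 1 of its 2 clusters had a summed level of 5773 CPM where the other libraries had 8978 to 11897 CPM. The part of that library's make-up in the result was not tested. Ccnb2 changed by -0.45, Cenpa by -0.47, Aurka by -0.36, Cdk1 by -0.28, Hmgb2 by -0.24, Top2a by -0.19 and Mki67 by -0.12 on the log2 scale, none called. Mki67 was detected in 36.5% ± 6.38 of control and 32.2% ± 10.7 of mutant cells (exact permutation p = 0.7, n = 3 and 3).

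At E18.5 the sorted cells as a whole differed little. The summed level was 8033 ± 698 CPM in controls and 8319 ± 1072 CPM in mutants (SD, n = 3). The median log2 change was 0.06, with 51 of the 54 positive. Its direction depended on single libraries, with -0.0298 without control library 3, -0.0124 and -0.0148 without mutant library 1 or 2, and 0.188 without mutant library 3. None was called by edgeR among 16794 genes tested (0%), and none of the 54 had an unadjusted p under 0.05, where 2.05% of all genes had. With the pair term 0.173% of all genes were called and none of the 54. The lowest p belonged to Aurka (0.14), Kif20b (0.13) and Anln (0.11), and the log2 changes of the others in the set of 8 were Mki67 0.08, Top2a 0.04, Hmgb2 0.04, Cdk1 0.10, Ccnb2 0.00063, Cdc20 0.05 and Cenpa 0.02. Higher in the mutant were 49, 47 and 27 of the 54 genes in pairs 1 to 3, and none was higher in every mutant than in any control (2.98% of all genes) or lower (2.06%).

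Within E18.5 granule-like progenitors the direction was small and even. The class joins 8 clusters, whose summed levels over all libraries of the stage ran from 6089 to 23064 CPM. The part of their mix in the levels was not tested. The summed level was 14334, 12991 and 13618 CPM in controls and 15084, 13908 and 14825 CPM in mutants. Each mutant lay above its littermate, and the groups overlapped. Of the 54 genes, 52 had the higher mean in mutants, with a median log2 change of 0.10 (0.0663 without control library 2), and 46, 48 and 53 were higher in pairs 1 to 3. None was called by edgeR, with or without the pair term, where 0.341% of all genes were called without it and 1.79% with it, and 6 had an unadjusted p under 0.05 (7.09% of all genes). Ndc80, which couples kinetochores to microtubules, was at 75.3, 72.9 and 69.7 CPM in controls and 82.3, 81.0 and 86.0 CPM in mutants. The groups did not overlap, and the log2 change was 0.18 (edgeR adjusted p = 0.271). Tubb4b was at 369, 347 and 327 CPM in controls and 391, 387 and 382 CPM in mutants, without overlap, by 0.14. Cdca2 changed by 0.15.

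Genes higher in every mutant of this class were 8 (Tpx2, Ndc80, Smc4, Tubb4b, Cdca8, Hmmr, Lbr and Ctcf), where 6.26% of all genes were, and none was lower, where 4.94% were. Aurka changed by 0.21, Cdk1 by 0.12, Mki67 by 0.12, Cdc20 by 0.11, Top2a by 0.09, Hmgb2 by 0.08, Cenpa by 0.06 and Ccnb2 by 0.03 on the log2 scale, none called. Mki67 was found in 61.4% ± 1.86 of control and 65.8% ± 2.37 of mutant cells after thinning (SD, n = 3), and 10 or more of the 54 genes in 72.6% ± 1.37 and 77.0% ± 1.75. Both gave an exact permutation p of 0.1 with n = 3 and 3, the smallest the design allows, and for Mki67 the highest control (63.51%) nearly touched the lowest mutant (63.54%). Without thinning the Mki67 shares were 73.1% and 77.2% and the groups overlapped (exact permutation p = 0.2, also with at least 2 UMIs required). In neurons of the stage the median log2 change was 0.02 over 54 genes in granule-like neurons and 0.004 over 46 tested genes in PN-like neurons, with none called, where 0% and 0.0154% of all genes were. Leaving out mutant library 1 gave -0.0472 and -0.146, and leaving out control library 2 also turned both below 0 (-0.0187 and -0.00966). The lowest p belonged to Hmmr (0.42), Cenpf (-0.22) and Anln (-0.41) in the former (edgeR adjusted p = 0.999) and to Ect2 (0.80), Cenpf (-0.29) and Cdca2 (0.94) in the latter. The set of 8 had log2 changes of Mki67 -0.11, Top2a -0.02, Hmgb2 -0.06, Cdk1 0.25, Ccnb2 0.10, Cdc20 0.0077, Aurka 0.11 and Cenpa 0.15 in granule-like neurons. In PN-like neurons they were Mki67 -0.10, Top2a -0.15, Hmgb2 -0.24, Cdk1 0.31, Ccnb2 0.27, Cdc20 0.19, Aurka 0.04 and Cenpa -0.10. Higher in every mutant were 1 gene (Hmmr) in granule-like neurons (4.35% of all genes) and 3 (Ect2, Ckap5 and Gas2l3) in PN-like neurons (5.38%), and lower were none (2.49%) and 1 (Cenpf, 3.82%).

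Whether the genotype effect differed between E14.5 and E18.5 was tested as an interaction over the 12 embryonic libraries. In all sorted cells 51 of the 54 genes had the smaller effect at E18.5, with a median difference of -0.44 on the log2 scale, and none was called among 17349 genes (0%), with 2 of the 54 at an unadjusted p under 0.05 (7.56% of all genes). With 1 library left out the median difference ran from -0.699 (without E14.5 mutant library 2) to -0.243 (without E14.5 control library 2), and it was -0.287 and -0.282 without E14.5 mutant library 1 or 3. The lowest p belonged to Jpt1 (0.36), Ncapd2 (-0.51) and G2e3 (-0.26), and the differences for the set of 8 were Mki67 -0.60, Top2a -0.57, Hmgb2 -0.43, Cdk1 -0.52, Ccnb2 -0.49, Cdc20 -0.32, Aurka -0.29 and Cenpa -0.37. With the pair term 38 of the 54 were called, 37 lower and Jpt1 higher, where 10.1% of all genes were called and 4.8% higher. Ect2 (-0.65), Nusap1, a microtubule bundler (-0.65), Kif11 (-0.64), Anln (-0.62), Bub1 (-0.62) and Gas2l3 (-0.60) were the largest. Mki67 came after them (-0.60, edgeR adjusted p = 0.012). The same test in granule-like progenitors was added after the data had been seen. There the median difference was 0.35, in the opposite direction, with 52 of 54 positive. None of the 54 was called, with or without the pair term, where 0% and 0.0141% of 14212 genes were, and 8 had an unadjusted p under 0.05 (4.25% of all genes), the lowest being those of Psrc1 (0.57), Tubb4b (0.51) and Jpt1 (0.32). The differences for the set of 8 were Mki67 0.23, Top2a 0.27, Hmgb2 0.31, Cdk1 0.39, Ccnb2 0.47, Cdc20 0.63, Aurka 0.56 and Cenpa 0.53. The median was 0.157 without E14.5 mutant library 2 and 0.549 without E14.5 mutant library 3.

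The last comparison set control E18.5 against control E14.5. In all sorted cells 51 of the 54 genes were called, where 45.6% of all genes were. Of these, 50 rose (22.6% of all genes) and Jpt1 fell by 0.83 on the log2 scale (22.9% of all genes fell). Mki67 was at 38.0, 32.5 and 65.9 CPM at E14.5 and 316, 299 and 242 CPM at E18.5. The stages were far apart, and the log2 change was 2.57 ± 0.27 (SE, edgeR adjusted p = 0.000476). Lbr, a receptor of the inner nuclear membrane, rose by 2.06, Anln by 2.04, Top2a by 1.93, Kif11 by 1.92 and Cenpe, a kinetochore motor, by 1.84. Cdk1 (1.04), Hmgb2 (0.99), Ccnb2 (0.94), Cenpa (0.93), Cdc20 (0.79) and Aurka (0.63) also rose. Tubb4b (-0.04), Rangap1 (-0.18) and Cbx5 (0.08) were not called. Every E18.5 library was above every E14.5 library for 51 genes (33.4% of all genes) and below for 1 (24.4%). Granule-like progenitors were 16.9%, 5.23% and 17.5% of kept control cells at E14.5 and 41.6%, 44.9% and 34.8% at E18.5, and a change in their number and in their transcripts cannot be told apart in this sum. The other mitotic genes rose in 52 and fell in 2 of 60 (Iqgap3 1.98, Aspm 1.98, Knl1 1.96 and Sgo1 1.88), and of 25 regulators 12 rose and 2 fell, led by Foxm1 (1.85) and Mybl2, which encodes B-Myb (1.47).

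Within granule-like progenitors the stages differed in some of the genes and not in others. The class joined 2 clusters at E14.5 and 8 at E18.5, and the part of their mix in the levels was not tested. Of the 54, 24 were called, where 38.6% of all genes were, so the share called was close to that of all genes. Of these, 20 rose (19.8% of all genes did) and 4 fell (18.8%), and the median log2 change was 0.18. Mki67 was at 122, 227 and 249 CPM at E14.5 and 612, 541 and 555 CPM at E18.5. Every E18.5 library was above every E14.5 library, by 1.46 ± 0.23 on the log2 scale (SE, edgeR adjusted p = 0.00136). Lbr was at 41.8, 45.9 and 51.8 CPM and then at 134, 128 and 124 CPM. Its libraries were tight at both stages, and it rose by 1.41 ± 0.10 (SE, edgeR adjusted p = 2.36e-05). Anln rose by 1.06, Kif11 by 0.83, Gas2l3, a linker of actin and microtubules, by 0.83, Cenpe by 0.78 and Top2a by 0.75.

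In the opposite direction, Jpt1 was at 694, 810 and 670 CPM at E14.5 and 490, 474 and 449 CPM at E18.5. The stages did not overlap, and it fell by 0.67 on the log2 scale. Aurka was at 66.7, 78.6 and 65.6 CPM and then at 57.3, 48.0 and 54.4 CPM, and fell by 0.45. Psrc1 fell by 0.36 and Cdc20 by 0.28, and their groups overlapped. Cdk1 (0.01), Hmgb2 (0.07), Ccnb2 (-0.10) and Cenpa (-0.11) were not called. By role, all 3 cytokinesis genes and both nuclear envelope genes rose, with 3 of 6 centromere, 4 of 10 chromatin and 6 of 16 spindle genes. Jpt1 and Psrc1, also spindle genes, fell. Among the 10 cyclin-kinase genes 1 rose (G2e3) and 1 fell (Cdc20), and among the 7 mitotic kinase genes 1 rose (Nek2) and 1 fell (Aurka). The roles were not tested against each other. Higher in every E18.5 library were 23 genes (31.5% of all genes) and lower 2 (20.4%).

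**Figure D5:**
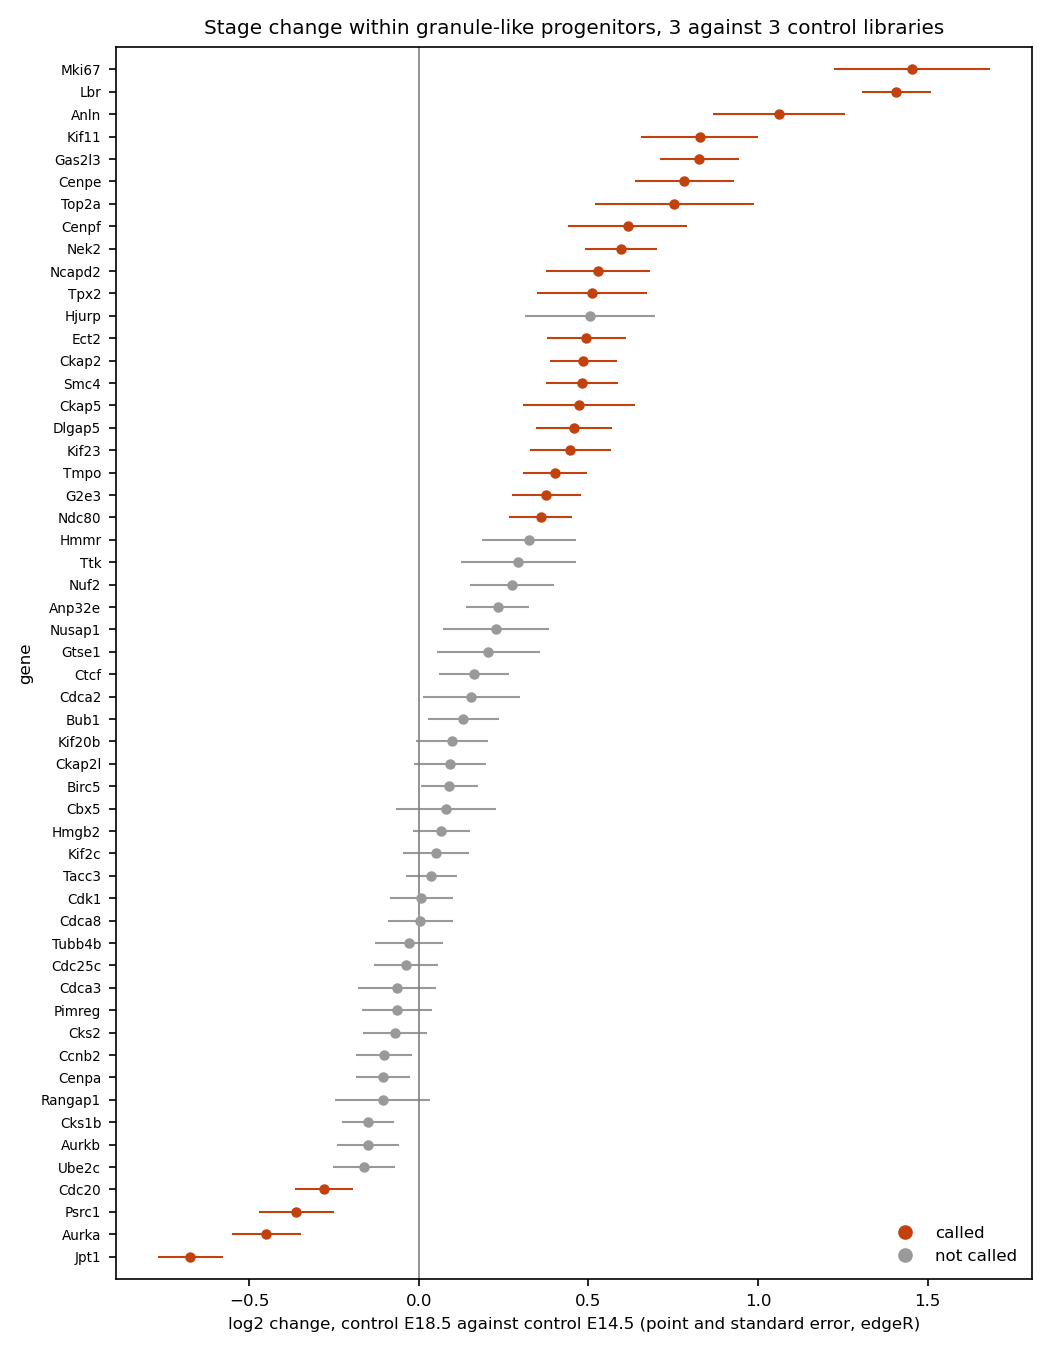
Log2 change of each gene in control E18.5 against control E14.5 granule-like progenitors (points, with the standard error as a line), orange where called and grey where not. Mki67 (1.46) and Lbr (1.41) lie farthest to the right, and Jpt1 farthest to the left at -0.67.

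Transcript length moved with this result. Over the 54 genes, log2 transcript length and the stage change had r = 0.665 (0.2 over 14114 genes), given as a description. The 10 members under 2000 bases had a median change of -0.07, and the 12 of 4000 to 6000 bases 0.547, where all genes of those lengths had -0.106 and 0.182. The E14.5 control library 1 differed from controls 2 and 3 along the same axis, with r = -0.675 over the 54 genes (-0.21 over the 14114 genes). Without that library Mki67 rose by 1.17, Lbr by 1.30, Anln by 0.83 and Kif11 by 0.62, Aurka fell by 0.51 and Jpt1 by 0.73, all still called by edgeR, and the median over the 54 genes was 0.04. The part of transcript length in the result was not tested. Control libraries 1 and 2 of E14.5 were also counted with an older Cell Ranger release than the rest. The setting with 1 release only leaves control library 3 alone at E14.5, with its spread taken from the E18.5 libraries. Its count of calls is therefore not given. Without E18.5 control library 3, 14 of the 54 genes were called. The share of all genes called in that setting is not given here, so this count has no background. Mki67, Lbr, Anln, Kif11, Cenpe, Jpt1 and Aurka were called in all 13 settings, that single-library one included, Top2a in 10 and Cdc20 in 7.

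Of the other mitotic genes, 17 rose and 5 fell of 60 in granule-like progenitors, among them Iqgap3 (0.96), Aspm (0.95), Knl1 (0.95) and Stmn1, which destabilises microtubules (-0.89). Of 25 regulators 6 rose and 5 fell, with Mybl1 at 1.07, Foxm1 at 0.72, E2f7 at 0.55 and Lin37, a MuvB subunit, at -0.79. Both counts of regulators were near the shares of all genes given above for this comparison. Of 43 S-phase genes 15 rose and 6 fell.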

How the data were processed

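The authors sorted living tdTomato-positive cells, made 10x Genomics 3′ v3.1 libraries and counted UMIs per gene and barcode with Cell Ranger on mm10. The deposited values are raw UMI counts. Cell Ranger 5.0.1 is named in the submitters' processing notes, and the file headers give 3.1.0 for E14.5 control libraries 1 and 2 and 5.0.1 for the other 12. Here barcodes with at least 1000 genes and at most 5% mitochondrial UMIs were kept (86757), the 7.5% with the highest Scrublet score in each library were removed as doublets (6507), and cells were clustered by stage with scanpy 1.11.5 (2000 variable genes, 30 components, 15 neighbours, Leiden resolution 1.0, seed 1). Clusters were named from markers, with limits set after the cluster means were seen, and stayed unnamed where markers of another class led.

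UMIs were summed per library and class and tested with edgeR 4.0.16 (TMM, quasi-likelihood, genes with a mean of at least 10 UMIs per library). The replicate number marks a littermate pair, and mutants and controls of a number deviated together (Pearson's r over genes 0.524, 0.720 and 0.691 at E14.5, 0.629, 0.652 and 0.861 at E18.5). The design without the pair was the main one, and the pair was an alternative beside DESeq2 1.42.0 and those in the closing section. On simulated counts for E14.5 sorted cells the test found 93.9% of genes changed by 1 on the log2 scale and 20% of those changed by 0.5. The simulation gave all genes 1 common spread between libraries, not estimated from these data, and held no littermate pairs. Its shares thus do not say how many real changes among the 54 genes would be found. Values for genes named in each comparison are for a fixed set of 8, for called genes (up to 6 by size of change) and, where none was called, for the 3 with the lowest p. Other genes, such as those whose groups did not overlap, were named after their values were seen. The 54 genes and the other gene lists were chosen with earlier results of these data known.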

Additional observations from a re-analysis of the deposited data

Results flagged for a closer look

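Tubb4b in granule-like progenitors was lower in all mutants than in any control at E14.5 and higher in all mutants than in any control at E18.5. It was found by searching the listed genes for this pattern, in all sorted cells and in this class. How many of all genes have the pattern was not counted, so it is no result about the list. The difference between the 2 genotype effects was 0.514 on the log2 scale. A test of that difference, added after the data were seen, gave an edgeR p of 0.0101 and an adjusted p of 1, so it was not called. Mutant library 2 at E14.5 had the lowest value of its group (227 CPM, against 283 and 297 CPM).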

How the results depend on the processing

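In the intermediate progenitors and the PN-like neurons 8 to 18 of the 54 genes had too few UMIs to test. By DESeq2 none of the 54 was called in the genotype comparisons within a class or in E18.5 sorted cells. In E14.5 sorted cells 0 genes were called by edgeR, 2 by DESeq2 and 46 with the replicate block. For the interaction in sorted cells the counts were 0, 1 and 38. With the block, 13.9% and 10.1% of all genes were called in these 2 comparisons. The shares by DESeq2 are not given here, so its calls are not read as a result about the 54 genes. The block changed no other call of a comparison. The stage comparison of granule-like progenitors gave 14 to 24 calls when 1 library was left out. Shares of all genes called with a library left out are not given here, so these counts have no background. Mutant minus control in the share of cells with an Mki67 UMI turned its sign in intermediate progenitors when 2 UMIs were required (0.229 percentage points) and in E18.5 PN-like neurons without thinning (-0.34) or with 2 UMIs required (-0.167). When 1 library was left out it ran from -0.333 to 8.42 in E14.5 PN-like progenitors, -0.285 to 0.0558 in intermediate progenitors, -9.83 to 0.818 in E14.5 granule-like progenitors, -0.65 to 3.56 in E18.5 sorted cells, -0.967 to 0.0282 in E18.5 granule-like neurons and -0.149 to 0.687 in E18.5 PN-like neurons. The cause was not tested. For single genes of the 2 stage comparisons, 910 values under an alternative kept direction and call and 64 kept direction but lost the call. The clustering with cell cycle genes kept, Leiden resolution 2.0, a mitochondrial limit of 10%, RLE scaling and the other filters moved no count of calls by more than 1.5 times.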

Other observations

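Hjurp followed the littermate pair at E18.5. In granule-like progenitors it was at 225, 138 and 223 CPM in controls 1 to 3 and at 229, 138 and 248 CPM in mutants 1 to 3, and in PN-like neurons at 46.1, 22.6 and 43.5 CPM and 43.3, 20.3 and 47.6 CPM. Pair 2 was the lowest in both genotypes and both classes. At E14.5 pair 2 was the highest in PN-like neurons, with 38.7 CPM in the control and 40.8 CPM in the mutant.

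E18.5 unipolar brush-like cells had a summed level of 5647 ± 690 CPM in controls and 4897 ± 365 CPM in mutants (SD, n = 3), and Mki67 was found in 14.04% and 10.81% of them after thinning (exact permutation p = 0.3, n = 3 and 3). The class joined 2 clusters that lay apart over all 6 libraries, 1425 cells at 2693 CPM with Mki67 at 7.05 CPM, near the neurons, and 1664 cells at 6788 CPM with Mki67 at 181 CPM. In E14.5 granule-like neurons of mutant library 2, 9 of 85 cells (10.6%, 95% Wilson interval 5.67% to 18.9%) had an Mki67 UMI, and 2.35% had a Top2a UMI.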
